A study of Mus musculus with 59 samples.

Results

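Infarct tissue was compared with remote left ventricle of mice 48 hours after a myocardial infarction, across all genes measured on an oligonucleotide microarray. The comparison holds 6 of the 59 arrays of a time series that runs from 1 hour to 8 weeks: the 3 arrays whose titles name infarcted left ventricle at 48 h and the 3 whose titles name non-infarcted left ventricle at 48 h. The infarct tissue lay between the left anterior descending coronary artery and the apex, and the remote tissue was ventricle above the infarction, in mice with myocardial infarction. Each infarct array has a remote array with the same title number, and the labels do not say what the number stands for; the 3 pairs are called A, B and C here, in the order of their numbers. Sham-operated mice gave the reference groups used beside this comparison: 3 upper ventricle arrays at 48 h (also called A, B and C by their numbers), placed to match the remote region, and 5 lower ventricle arrays over 5 times, 1 of them at 48 h, placed to match the infarct region. The sham arrays carry other numbers than the infarct and remote arrays, so a difference from sham also holds any difference between the sets of mice. The sources used here do not give strain, age or sex.

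When a coronary artery is closed, the muscle it feeds dies within hours, and debris and danger signals from the dying cells draw neutrophils and then monocytes into the tissue. These cells clear dead muscle with proteases, oxidants and phagocytosis, and fibroblasts later lay down a collagen scar in its place. Ventricle above the infarct keeps its blood supply but carries the extra work of the heart and is bathed in the same circulating hormones and cytokines, so comparing both regions asks what is local to the infarct, and the sham ventricle shows what both regions share.

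Values are intensities as the submitters deposited them, on a linear scale with every array set to about the same average. Of 8251 genes on the array with a probe set of their own, 6670 were bright enough to test. Where a gene had several probe sets, its values come from the brightest. Differences are infarct minus remote on the scale of log2(intensity + 45.6), given with the standard error (SE) of the fit. A gene is called higher or lower where the limma fit over all arrays gave a p under 0.05 after Benjamini-Hochberg adjustment over the 6670 genes. Intensities at 48 h are listed in the order of the title numbers. The median intensity of the 48 h arrays lay between 172.2 and 194.9, and Pearson correlations of log2 values over all genes were 0.968 to 0.982 among infarct arrays, 0.951 to 0.981 among remote arrays and 0.847 to 0.924 between an infarct and a remote array. Nothing says that arrays of one group came from separate mice, so the p-values measure the spread between these samples. Cardiac muscle genes marked both tissues as labelled: the summed intensity of 25 sarcomere genes was 145039 to 183523 on infarct arrays and 248665 to 277770 on remote arrays. Each tissue was measured in bulk, and fewer cells of a type and less RNA per cell cannot be told apart.

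In infarct tissue, 1630 genes were higher than in remote tissue and 1577 were lower, which is 24.4% and 23.6% of the genes tested. Of these, 482 were at least 2-fold higher and 297 at least 2-fold lower. Counts over the gene lists below are to be read against 24.4% higher and 23.6% lower. The 3 infarct values all lay outside the range of the 3 remote values for 49.1% of genes, 1623 above it and 1652 below it. The median difference over all genes was -0.018. Every array had been set to about the same average, so this median cannot show whether rises and falls balance in the tissue. Among the 14 largest rises were Mmp9, S100a8 and S100a9 of neutrophils, Arg1 and Chil3 of alternatively activated macrophages and the chemokines Cxcl2 and Cxcl5. Among the 14 largest falls were Sgca, Dmpk, Ldb3 and Slc2a4 of muscle, but also Clec3b, Spock2 and Apod, which are known from stroma, matrix and stressed cells.

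**Figure D1:**
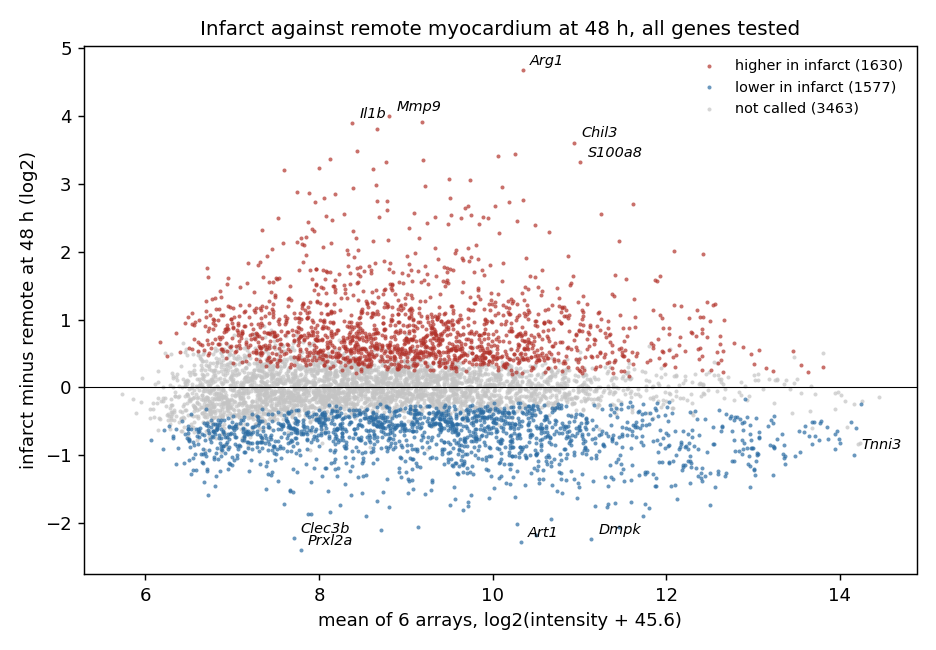
Each point is 1 of 6670 genes, placed by its mean over the 6 infarct and remote arrays (x axis, log2 of intensity + 45.6) and by its difference, infarct minus remote at 48 h (y axis, log2). Genes past an adjusted p of 0.05 are coloured, 1630 higher in infarct tissue and 1577 lower. The rises reach 4.68 on the log2 scale (Arg1) and the falls reach -2.40 (Prxl2a).

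The largest difference was that of Arg1, the arginase of alternatively activated macrophages, which read 7533, 6697 and 5546 in infarct tissue, against 379, 227 and 102 in remote tissue. All infarct values were more than 10 times the highest remote value, and the difference was 4.68 ± 0.56 (adjusted p = 9.01e-09), a 25.6-fold difference on the scale of intensity + 45.6. Mmp9, the gelatinase that neutrophils carry in their granules, read 1749.7, 1761 and 1719 in infarct tissue, against 144, 45.8 and 36.1 in remote tissue (3.99 ± 0.43, adjusted p = 9.6e-10). Its infarct values were nearly equal to each other, while its remote values included 2 below the intensity of 108.2 that the filter on dim genes used. Adam8, a membrane protease of leukocytes, differed by 3.91 ± 0.39, and Il1b, the interleukin released by activated inflammasomes, by 3.90 ± 0.56. Il1b read 1451, 1239 and 1064 in infarct tissue and 69.2, 36.1 and 23.4 in remote tissue, with no overlap.

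Other large rises were of leukocyte genes. Cd53, a tetraspanin of all leukocytes, differed by 3.41 ± 0.42. Fpr2, a receptor for formylated peptides on neutrophils and monocytes, differed by 3.36 ± 0.23, and Clec4d, a pattern recognition lectin of myeloid cells, by 3.48 ± 0.38. Itgam, the alpha chain of the integrin Mac-1, differed by 3.32 ± 0.37. Selp, the P-selectin of platelets and activated endothelium that captures rolling leukocytes, read 725, 783 and 712 in infarct tissue, against 37.4, 34.6 and 41.1 in remote tissue. Its remote values were all below 108.2 and its infarct values lay within 10% of their mean. The difference was 3.24, with one of the smallest errors among the large rises (SE 0.23, adjusted p = 9.79e-14). That error draws on the spread over all arrays of the fit.

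**Figure D2:**
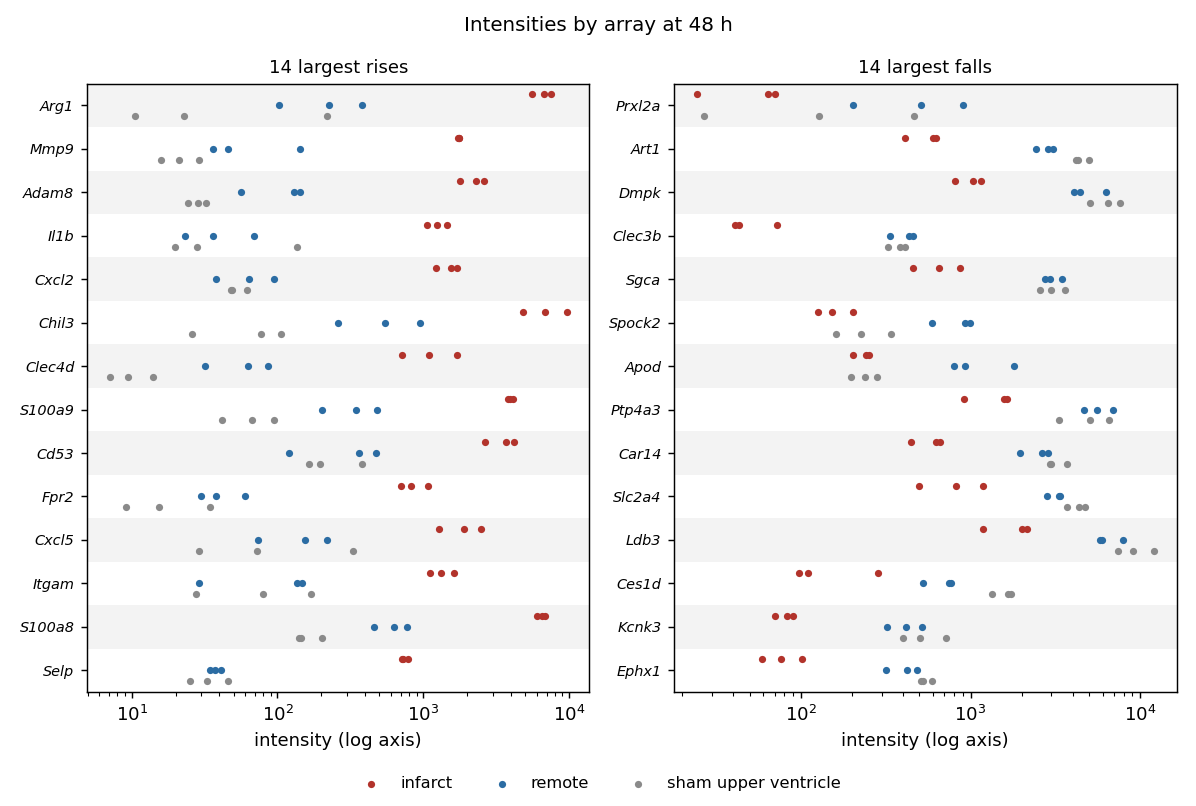
Intensities (log axis) of the 14 genes with the largest rises (left) and the 14 with the largest falls (right) among called genes whose infarct and remote arrays did not overlap. Each point is 1 array: infarct (red, upper row of a gene), remote (blue) and sham upper ventricle (grey) at 48 h, 3 arrays each. Among the rises, the remote points lie above every sham point for Mmp9, Adam8, Chil3, Clec4d, S100a9 and S100a8 and overlap them for the other 8 genes, and among the falls Spock2 and Apod stand out with remote values above both other groups.

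Neutrophil markers rose as a group: of 14 tested, 8 were higher and none lower, with a median difference of 1.335 against -0.018 over all genes. Of 23 markers listed, these 14 passed the filter, and 6 of them were below 108.2 on all 3 remote arrays, against 2 on all 3 infarct arrays. S100a9 and S100a8, the subunits of calprotectin and the most abundant cytosolic proteins of neutrophils, read 4132, 3954 and 3819 in infarct tissue, against 344, 485 and 201 in remote tissue for S100a9 and 6868, 6499 and 6056 in infarct tissue, against 629, 774 and 462 in remote tissue for S100a8. The infarct values of both genes varied little between arrays and exceeded the remote values about 10-fold. Il1r2, the decoy receptor that binds interleukin 1 without signalling, differed by 3.08 ± 0.24, and Mmp8, the collagenase of neutrophil granules, by 2.50 ± 0.23. The summed intensity of the 14 markers was 19795 to 21096 on infarct arrays, 5703 to 7001 on remote arrays and 1161 to 1876 on sham upper arrays. Most of the remote sum was Lcn2, the one bright marker that was not higher in infarct tissue and is described below. Without Lcn2, left out after its values were seen, the sum of the other 13 was 15629 to 18529 on infarct arrays, 1978 to 2471 on remote arrays and 878 to 1416 on sham arrays. The median difference of remote from sham tissue over the 14 markers was 0.398, and 4 of them (S100a8, S100a9, Il1r2 and Lcn2) were called higher in remote than in sham tissue (298 genes, 4.47% of those tested, were called higher in that comparison and 290, 4.35%, lower). Its total of 588 genes (8.82%) fell to 285 without remote array C and to 333 without sham array B.

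Of 28 macrophage and monocyte markers tested, 21 were higher in infarct tissue and none lower (median 1.489). Chil3, a chitinase-like secreted protein of alternatively activated macrophages and of some neutrophils, read 9609, 6792 and 4818 in infarct tissue, against 944, 543 and 260.4 in remote tissue, and its remote values were in turn above the sham values of 77.7, 25.9 and 106 (remote minus sham 2.35 ± 0.42, adjusted p = 0.000202). Lgals3, the galectin of phagocytic macrophages, differed by 3.05 ± 0.45, Ccr1, a receptor for inflammatory chemokines, by 2.96 ± 0.36 and Tyrobp, the adaptor of many myeloid receptors, by 2.74 ± 0.35. Cd14, the co-receptor for endotoxin and danger signals, read 9874, 7300.2 and 7003 in infarct tissue, against 1357, 1099 and 1125 in remote tissue, and the groups were far apart. Cd68, a lysosomal glycoprotein of macrophages, differed by 1.56 ± 0.24, Lyz2, lysozyme, by 1.38 ± 0.33 and Csf1r, the receptor for the macrophage growth factor, by 0.87 ± 0.19, although a second, dimmer probe set of Csf1r was called lower (-0.98). Adgre1, which encodes the F4/80 antigen of mature tissue macrophages, read 127, 221 and 87.9 in infarct tissue, against 65.6, 98.2 and 40.7 in remote tissue. The groups overlapped and the fit over all arrays did not call the gene (0.72 ± 0.37, 95% interval -0.02 to 1.46). Within every pair the infarct value was the higher, and a limma fit of the 6 arrays paired by number called Adgre1 higher (adjusted p = 0.0133). The summed intensity of the 28 markers was 44835 to 74576 on infarct arrays, 13357 to 17849 on remote arrays and 12374 to 16640 on sham arrays, so remote and sham tissue overlapped in this sum while infarct tissue stood above both. The part that cell numbers have in the differences of inflammatory genes was not tested.

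Infarct array C had the lowest value of the 3 for many macrophage genes. Mpeg1, a pore-forming protein of macrophages, read 1497, 1937 and 367 in infarct tissue, against 312, 399.8 and 408 in remote tissue; the low infarct value overlapped the remote range, and the within-pair differences were 2.11, 2.15 and -0.14 for the pairs A, B and C. Without infarct array C its difference was 2.08 in place of 1.38. Over the 28 markers the median within-pair difference was 1.9, 1.736 and 0.979 in the same order. The neutrophil markers were closer between the pairs, with medians of 1.554, 1.365 and 1.085.

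Lymphoid markers did not share these rises. Of 9 T and NK cell markers tested, 1 was higher and 3 were lower (median -0.308), against 24.4% and 23.6% of all genes. On all 3 infarct arrays, 6 of the 9 were below 108.2. Cd3e, a chain of the T cell receptor complex, was the 1 called higher (0.64 ± 0.27, adjusted p = 0.0454), and array C stood far above the other infarct arrays: it read 42.3, 33.7 and 225 in infarct tissue, against 26.3, 22.8 and 55.2 in remote tissue. Without infarct array C its difference was 0.10 and not called (adjusted p = 0.76). None of 8 B cell and plasma cell markers and none of 3 erythroid markers was called. Among 5 mast cell and platelet markers, Kit, the stem cell factor receptor, was higher at 529.6, 649 and 643 in infarct tissue, against 100.1, 80.7 and 33.3 in remote tissue (2.52 ± 0.21), and Tpsb2, a mast cell tryptase, was lower (-0.61 ± 0.17), although its second probe set was called higher (0.77).

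Chemokines and their receptors were higher in infarct tissue for 16 of 26 genes tested and lower for 1 (median 1.264). Of 47 genes listed, these 26 passed the filter, and 9 of them were below 108.2 on all 3 remote arrays, against 4 on all 3 infarct arrays. Chemokines bind G-protein-coupled receptors on leukocytes and set the direction in which these cells migrate. The CXC chemokines that draw neutrophils through Cxcr2 were among the largest rises. Cxcl2 read 1706, 1219.8 and 1542 in infarct tissue, against 95.4, 64.0 and 37.7 in remote tissue (3.81 ± 0.41, adjusted p = 1e-09), Cxcl1 read 3661, 3738 and 2742 in infarct tissue, against 375, 580.3 and 437 in remote tissue (2.76 ± 0.32) and Cxcl5 differed by 3.35 ± 0.49. Remote values of Cxcl2 overlapped the sham values of 61.9, 49.0 and 47.9 (remote minus sham 0.15 ± 0.44, adjusted p = 0.886). Of the CC chemokines that draw monocytes, Ccl2 read 7889, 6834 and 3723 in infarct tissue, against 1160.1, 1222 and 617 in remote tissue and Ccl7 read 2606, 2066 and 768 in infarct tissue, against 265, 328.8 and 213 in remote tissue. Remote values of both were above sham, by 1.75 ± 0.41 for Ccl2 and 1.24 ± 0.39 for Ccl7, so that the gradient ran from infarct through remote to sham tissue. Ccr2, the receptor for both on monocytes, differed by 2.51 ± 0.34, Ccl3 by 2.12 ± 0.29 and Ccl4 by 1.52 ± 0.24. Cxcl12, the homeostatic chemokine that retains progenitor cells, was the 1 gene of the list that fell (1828, 1758 and 1724 in infarct tissue, against 2508, 2764 and 2391 in remote tissue, -0.52 ± 0.18).

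Cytokines and cytokine receptors moved the same way, 29 of 37 higher and 2 lower (median 1.024). Of 55 genes listed, these 37 passed the filter, and 10 of them were below 108.2 on all 3 remote arrays, against 5 on all 3 infarct arrays. Il6, the inducer of the acute phase response, read 412, 812 and 463 in infarct tissue, against 26.1, 63.2 and 18.6 in remote tissue (2.88 ± 0.35, adjusted p = 1.25e-08). Inhbb, a subunit of activin B and inhibin B, read 418, 589.8 and 840.0 in infarct tissue, against 78.8, 37.7 and 20.0 in remote tissue, with no overlap. Il1rn, the natural antagonist of the interleukin 1 receptor, differed by 2.85 ± 0.38, beside the rises of the agonist Il1b and the decoy receptor Il1r2. Ltb, a membrane-bound lymphotoxin, differed by 2.73 ± 0.35, and Socs3, the feedback inhibitor of Il6 family signalling, by 1.65 ± 0.21. The 2 lower genes were Il15 (-0.95 ± 0.26), which maintains NK and memory T cells, and Il10rb (-0.43 ± 0.13), a shared chain of the interleukin 10 receptor family; both were also lower in remote than in sham tissue, by -0.998 ± 0.28 and -0.58 ± 0.14.

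Promoters of the neutrophil chemokines and Il6 carry binding letters for NF-kappaB, the transcription factor best known for driving these genes. They are shown because these genes rose together, from 250 bases before to 50 bases after the RefSeq start (GRCm38.p6), 5′ to 3′ on the strand of the gene, with matches to GGGNNTTNCC on either strand in capitals. Cxcl2 lies at chr5:90903649-90903948 and Cxcl1 at chr5:90890995-90891294, beside each other on the plus strand, and Il6 at chr5:30012864-30013163, also on the plus strand.
Cxcl2: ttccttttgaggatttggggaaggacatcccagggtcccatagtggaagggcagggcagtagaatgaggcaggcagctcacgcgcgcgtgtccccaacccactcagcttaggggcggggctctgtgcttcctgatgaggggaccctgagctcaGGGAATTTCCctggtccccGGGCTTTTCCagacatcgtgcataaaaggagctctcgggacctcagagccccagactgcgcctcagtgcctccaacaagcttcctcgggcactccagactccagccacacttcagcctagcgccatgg
Cxcl1: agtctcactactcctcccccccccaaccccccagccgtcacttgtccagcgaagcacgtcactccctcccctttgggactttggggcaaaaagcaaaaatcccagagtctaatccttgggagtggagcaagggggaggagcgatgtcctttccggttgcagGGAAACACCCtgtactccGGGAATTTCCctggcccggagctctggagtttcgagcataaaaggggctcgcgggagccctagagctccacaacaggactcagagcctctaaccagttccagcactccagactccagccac
Il6: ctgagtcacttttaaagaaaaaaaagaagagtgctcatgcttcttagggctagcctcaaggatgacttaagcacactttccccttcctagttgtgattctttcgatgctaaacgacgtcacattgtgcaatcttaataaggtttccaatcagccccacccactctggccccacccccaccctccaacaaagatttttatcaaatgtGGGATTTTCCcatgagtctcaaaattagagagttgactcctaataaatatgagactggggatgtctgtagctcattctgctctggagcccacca
The first match began 97, 89 and 44 bases before the start in Cxcl2, Cxcl1 and Il6, and Cxcl2 and Cxcl1 held 2 matches each. These letters were present in 13 of 58 promoter entries of tested chemokine and cytokine list genes (22.4%), in 365 of 6919 promoters of all tested genes (5.28%) and in 4.79% of all 32851 promoters in the table. Among lists that fell, they were in 5 of 59 entries of fatty acid and citric acid cycle genes (8.47%) and 4 of 54 of oxidative phosphorylation genes (7.41%). A match of letters is a description of the sequence and not evidence of binding in this tissue.

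Genes of phagocytosis and leukocyte attachment followed. Of 29 genes for the phagocyte oxidase, integrins and Fc receptors, 24 were higher and none lower (median 1.419). Of 36 genes listed, these 29 passed the filter, and 6 of them were below 108.2 on all 3 remote arrays, against 1 on all 3 infarct arrays. Itgb2, the shared beta chain of the leukocyte integrins, read 1543, 1246 and 806 in infarct tissue, against 128, 141 and 21.8 in remote tissue (3.21 ± 0.32, adjusted p = 2.08e-10). Ptprc, the leukocyte common antigen CD45, differed by 2.79 ± 0.31, Fcgr2b, the inhibitory Fc receptor, by 2.67 ± 0.29, Ncf4, a subunit of the phagocyte oxidase, by 2.57 ± 0.30 and Selplg, the ligand of P-selectin, by 2.41 ± 0.19. For each of these genes every infarct value was above every remote value. On the vessel side, 7 of 12 adhesion and activation genes were higher and 1 lower: besides Selp, Ptx3, a secreted pattern recognition protein, differed by 1.49 ± 0.32, Icam1, the ligand of the leukocyte integrins, by 0.97 ± 0.23 and Sele, E-selectin, by 0.86 ± 0.19. The lower one was Pecam1, a junction molecule of endothelial cells (223, 154 and 216 in infarct tissue, against 384, 335 and 408 in remote tissue, -0.80 ± 0.25).

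MHC class II molecules present peptides to helper T cells. A list for this presentation, which also holds Ctss, Cd80 and Itgax that are not class II chains, was higher in infarct tissue for 8 of 13 genes and lower for none (median 0.775). Against sham tissue, 4 of the 13 were higher in infarct tissue and none lower (median 0.235), and 3 were lower in remote tissue and none higher (median -0.138). The 3 lower in remote tissue were H2-Aa, H2-Ab1 and Cd74. The 4 higher in infarct tissue, named after their values were seen, were H2-DMb1, Ctss, Cd80 and Itgax. H2-Aa, a class II alpha chain, read 1636, 1962 and 1065 in infarct tissue, against 419, 563 and 204 in remote tissue, and 1234, 1834 and 1654 in sham upper ventricle. Infarct values overlapped the sham values, and remote values were below both. The difference between infarct and remote tissue was 1.91 ± 0.34 (adjusted p = 1.14e-05), that between remote and sham tissue was -1.95 ± 0.37 (adjusted p = 0.000436), and that between infarct and sham tissue was -0.04 ± 0.37 (adjusted p = 0.935), in a comparison that called 50.9% of genes. H2-Ab1, the partner beta chain, differed by 1.77 ± 0.32 between infarct and remote tissue and by -1.54 ± 0.34 between remote and sham tissue, and Cd74, the invariant chain that guides class II molecules to the endosome, by 1.65 ± 0.31 and -1.42 ± 0.34. Ctss, the cathepsin that trims the invariant chain, followed another course: it read 7091, 9106 and 3172 in infarct tissue, against 1372, 1822 and 842 in remote tissue, and 668, 971 and 1354 in sham tissue, so its remote values were near the sham values (remote minus sham 0.40 ± 0.31, adjusted p = 0.476).

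**Figure D3:**
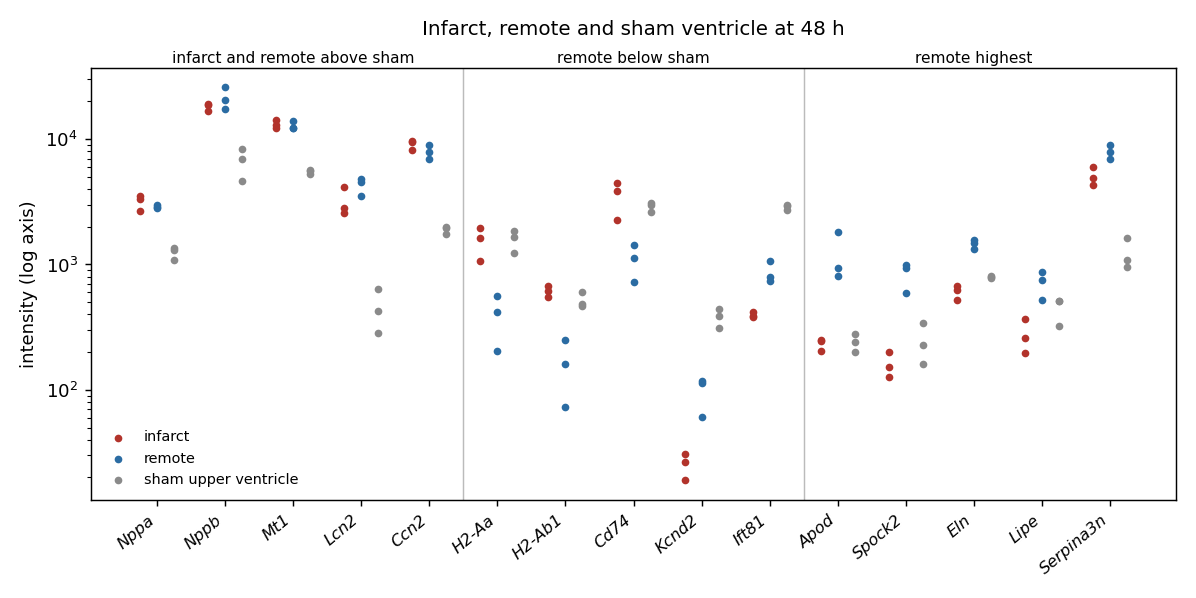
Intensities (log axis) at 48 h of 15 genes in infarct (red), remote (blue) and sham upper ventricle (grey), 3 arrays each, 1 point per array. From left to right are 5 genes with infarct and remote values both above sham, 5 with remote values below sham and 5 with remote values above both infarct and sham; the assignment of a gene to a block was made after seeing its values.

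Complement and coagulation genes were higher for 14 of 27 and lower for 6, against 24.4% and 23.6% of all genes. Plaur, the urokinase receptor, read 1006, 879 and 1140.3 in infarct tissue, against 99.1, 116 and 119 in remote tissue (2.74 ± 0.23), F10, coagulation factor X, differed by 2.32 ± 0.22, Cfp, properdin of the alternative complement pathway, by 1.96 ± 0.31, and C3ar1, the receptor for the C3a fragment, by 1.66 ± 0.20. Procr, the protein C receptor, differed by 1.72 ± 0.28. The falls included Cd59a, an inhibitor of the membrane attack complex (1324, 1339 and 1449 in infarct tissue, against 3743, 3899 and 3312 in remote tissue, -1.38 ± 0.15), F3, tissue factor (-0.69 ± 0.18), and Cfb, complement factor B (-1.10 ± 0.36), which was below the filter intensity on all infarct arrays.

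Matrix proteases and their inhibitors were higher for 14 of 23 and lower for 4. Timp1, the inducible inhibitor of metalloproteinases, read 11052, 13105 and 8777 in infarct tissue, against 2632, 3623 and 2136 in remote tissue (1.97 ± 0.34, adjusted p = 6.29e-06). Remote values were in turn above the sham values of 898, 391.3 and 861 (remote minus sham 1.95 ± 0.36), so the steps from sham to remote and from remote to infarct were of like size. Besides Mmp9 and Mmp8, Ctsc, the protease that activates the serine proteases of neutrophil granules, differed by 2.49 ± 0.30, Mmp12, the macrophage elastase, by 2.21 ± 0.55, Mmp3 by 1.12 ± 0.39 and Mmp14, a membrane-anchored collagenase, by 0.85 ± 0.20. Lower were the constitutive inhibitors Timp3, by -0.68 ± 0.22 (adjusted p = 0.0106) and Timp2, by -0.62 ± 0.25 (adjusted p = 0.0339), and Mmp11 (-0.50 ± 0.21). The calls of these 3 genes were lost when some single arrays were left out. Mmp11 differed by -0.0474 (adjusted p = 0.899) and Timp2 by -0.56 (adjusted p = 0.13) after subtraction of the sham difference between lower and upper ventricle.

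Collagens and the enzymes that fold and crosslink them were higher for 11 of 27 genes and lower for 1 (median 0.4), against 24.4% and 23.6% of all genes. Of the 11, 6 were enzymes or chaperones and 5 were collagen chains. P4hb, the beta subunit of prolyl hydroxylase, differed by 1.77 ± 0.29, with a dimmer probe set at -0.84, and by 1.14 after subtraction of the sham difference between lower and upper ventricle. P4ha1, its catalytic subunit, differed by 0.89 ± 0.20, Serpinh1, the collagen chaperone of the endoplasmic reticulum, by 0.87 ± 0.25 and Bmp1, which removes the C-propeptide of fibrillar collagens, by 0.80 ± 0.20. Lox, the lysyl oxidase that crosslinks collagen and elastin, read 944, 1666 and 932 in infarct tissue, against 378, 491 and 238 in remote tissue, and 37.6, 9.8 and 88.8 in sham tissue. Its 3 groups did not overlap, with differences of 1.56 ± 0.37 between infarct and remote tissue and 2.23 ± 0.40 between remote and sham tissue, and its second probe set, dim at a mean intensity of 82.9, differed by -0.93 between infarct and remote tissue. Of the fibrillar chains, Col5a2 was called (1.26 ± 0.34), whereas Col1a1 and Col3a1, chains of the main fibrils, were not. Col1a1 read 4495, 10006 and 2949 in infarct tissue, against 2918, 5076 and 2696 in remote tissue; array B was the highest in both groups, the groups overlapped, and the difference was 0.57 ± 0.34 (adjusted p = 0.159, 95% interval -0.11 to 1.251). For Col3a1 the difference was 0.31 ± 0.30 (adjusted p = 0.42, 95% interval -0.31 to 0.92), although its second probe set was called higher (0.97). Pcolce, the enhancer of procollagen cleavage, was the lower gene (-0.53 ± 0.20).

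Matricellular proteins, proteoglycans and laminins were mixed, 17 of 41 higher and 11 lower, against 24.4% and 23.6% of all genes. The higher ones are known from provisional matrix: Tnc, tenascin C, read 1783, 1732 and 1088 in infarct tissue, against 215, 357 and 143 in remote tissue (2.51 ± 0.33), Cd44, the hyaluronan receptor, differed by 2.55 ± 0.32, Ccn1 by 1.501 ± 0.25, Vcan, versican, by 1.24 ± 0.20, Fn1, fibronectin, by 0.68 ± 0.17 and Sparc by 0.76 ± 0.20. The lower ones included Vtn, vitronectin (-1.28 ± 0.20), Eln, elastin (-1.21 ± 0.25), and Lamb2, a laminin chain of muscle and vessel basement membranes (-1.12 ± 0.13). Ogn, a small leucine-rich proteoglycan of stroma that is not in the list, read 217, 385 and 324 in infarct tissue, against 993, 992 and 959.5 in remote tissue (-1.57 ± 0.24). Eln was also higher in remote than in sham tissue (0.84 ± 0.28), whereas Ogn was lower (-0.89 ± 0.26). Of 30 TGF-beta, activin and BMP genes, 10 were higher and 3 lower, against 24.4% and 23.6% of all genes. Tgfbi, a matrix protein induced by TGF-beta, differed by 2.45 ± 0.24, Id2 by 2.39 ± 0.26, Tgfb1 by 1.58 ± 0.30 and Inhba, the subunit of activin A, by 1.47 ± 0.23. Bmp2 (-0.80 ± 0.19), Bmp4 (-0.45 ± 0.16) and Bmp6 (-0.36 ± 0.13) were the lower ones. In the paired fit of the 6 arrays Bmp4 (adjusted p = 0.0655) and Bmp6 (adjusted p = 0.124) were not called, and a second probe set of Bmp4 was at 0.47.

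Fibroblast markers did not move as a group: 5 of 19 were higher and 5 lower (median -0.013), shares near those of all genes (24.4% and 23.6%). S100a4, a calcium-binding protein of fibroblasts and of macrophages, differed by 1.84 ± 0.28, and Postn, periostin of activated fibroblasts, by 0.70 ± 0.26. The difference of Postn was 0.44 and not called without remote array C (adjusted p = 0.212), and 0.17 after subtraction of the difference between lower and upper sham ventricle (adjusted p = 0.695). Gsn, gelsolin (-1.26 ± 0.14), Fbln1, fibulin 1 (-0.79 ± 0.22), and Mgp, an inhibitor of calcification (-0.64 ± 0.20), were lower. The probe set of Vim, vimentin, was dim at 66.9, 46.3 and 101 in infarct tissue and 158, 131 and 218 in remote tissue, and its call as lower (-0.88 ± 0.27) rests on signals near the filter intensity. The muscle genes that mark myofibroblasts were not called at 48 h. Acta2, smooth muscle actin, read 2622, 3111 and 2531 in infarct tissue, against 3237, 2815 and 4438 in remote tissue (-0.32 ± 0.24, adjusted p = 0.285), and Tagln, transgelin, differed by -0.57 ± 0.24 (adjusted p = 0.0521).

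Cell cycle and DNA replication genes were higher in infarct tissue for 29 of 55 and lower for 3 (median 0.538). Pcna, the sliding clamp of DNA replication, read 2701, 2878 and 1922 in infarct tissue, against 1076, 1227 and 835 in remote tissue (1.22 ± 0.15, adjusted p = 2.22e-08). Cks1b and Cks2, small subunits of cyclin-dependent kinases, differed by 1.83 ± 0.25 and 1.75 ± 0.29, Cdk1, the kinase of mitotic entry, by 1.33 ± 0.35, Rrm1, a ribonucleotide reductase subunit, by 1.37 ± 0.37, and the helicase subunits Mcm2 and Mcm5 by 1.17 ± 0.28 and 1.21 ± 0.29. Array B was the highest infarct array for each of these 7 genes: Cdk1 read 229, 616 and 81.8 in infarct tissue and 28.9, 181 and 40.6 in remote tissue, so that its groups overlapped. Without infarct array B its difference was 0.79 and not called (adjusted p = 0.0748). Smc2, a condensin subunit outside the list, read 633, 553 and 206 in infarct tissue, against 126, 155 and 61.2 in remote tissue. The replication licensing inhibitor Gmnn (-1.55 ± 0.21), the cyclin-dependent kinase inhibitor Cdkn1c (-0.87 ± 0.24) and the ligase Lig1 (-0.62 ± 0.16, second probe set 1.34) were the 3 lower genes. Mki67, the proliferation antigen, read 171, 145 and 149 in infarct tissue, against 84.6, 163 and 293 in remote tissue and was not called (-0.06 ± 0.21, 95% interval -0.49 to 0.36), while its second probe set, dim at a mean intensity of 84.0, was called higher (1.10).

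Stress response genes rose in part. Immediate early genes were higher for 16 of 25 and lower for 2 (median 0.705). Fosl1, an AP-1 subunit, differed by 2.34 ± 0.27, Myc by 2.02 ± 0.19, Ptgs2, the inducible cyclooxygenase, by 1.85 ± 0.25, Junb by 1.66 ± 0.22 and Egr2 by 1.55 ± 0.21. Fos read 1141, 1034 and 2612 in infarct tissue, against 147, 239 and 974 in remote tissue; pair C was the highest on both sides, and the difference was 1.98 ± 0.38. Klf4 (-0.91 ± 0.21) and Fosl2 (-0.49 ± 0.18; -0.32 and not called without infarct array B, adjusted p = 0.182) were lower. Of 31 genes of the unfolded protein and integrated stress response, 20 were higher and 1 lower: Mthfd2, a mitochondrial folate enzyme under control of Atf4, differed by 2.02 ± 0.30, Psat1, of serine synthesis, by 1.16 ± 0.24, Creld2 by 1.32 ± 0.25, and the disulfide isomerases Pdia6 and Pdia3 by 1.20 ± 0.20 and 1.14 ± 0.18. Ddit3, the proapoptotic factor CHOP, read 356, 378 and 458 in infarct tissue, against 445, 427 and 421 in remote tissue and was not called (-0.11 ± 0.13, 95% interval -0.38 to 0.16), and Herpud1, of endoplasmic reticulum degradation, was the lower gene (-1.10 ± 0.20).

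Of 18 heat shock chaperones, 6 were higher and 4 lower (median 0.025), shares not far from those of all genes (24.4% and 23.6%). The inducible genes Hspa1a and Hspa1b, which are near-identical copies whose probe sets may share transcripts, read 2734, 1335 and 4730.4 in infarct tissue, against 544, 299 and 298 in remote tissue for Hspa1a and 2359, 962 and 3687 in infarct tissue, against 353.6, 267 and 320.2 in remote tissue for Hspa1b. Infarct arrays differed more than 3-fold among themselves, with array C the highest and array B the lowest, and all were above the remote arrays (2.68 ± 0.44 and 2.54 ± 0.44). Hspb8, a small heat shock protein, and its partner Bag3 were lower, by -0.47 ± 0.17 and -0.71 ± 0.17. After subtraction of the sham difference between lower and upper ventricle they stood at -0.29 (adjusted p = 0.271) and -0.42 (adjusted p = 0.0909), and the second probe set of Bag3 was not called (-0.15). Of 29 apoptosis, p53 and growth arrest genes, 15 were higher and 3 lower. Btg1, an antiproliferative factor, read 2007, 1595 and 1865 in infarct tissue, against 403, 433 and 339.8 in remote tissue (2.09 ± 0.14, adjusted p = 1.67e-14), and Gadd45g, Gadd45b and Gadd45a differed by 1.70 ± 0.26, 1.43 ± 0.33 and 1.10 ± 0.20. Cycs, cytochrome c, was lower (-0.98 ± 0.21), as were Ccng1 (-0.98 ± 0.19) and Bik (-0.69 ± 0.22; -0.44 and not called without infarct array A, adjusted p = 0.146).

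Interferon-induced genes were higher for 10 of 27 and lower for 2 (median 0.485), against 24.4% and 23.6% of all genes. The groups overlapped for most of them: 4 of the 27 had all infarct values above all remote values, against 24.3% of all genes. Ifi202b differed by 1.54 ± 0.23 and Irf8, a transcription factor of myeloid cells, by 1.33 ± 0.16. Isg15, a ubiquitin-like protein induced by interferon, read 511.8, 699.6 and 335 in infarct tissue, against 469, 408 and 79.6 in remote tissue; array C was the lowest on both sides (0.81 ± 0.29, adjusted p = 0.0191). Without remote array C the difference was 0.20 and no longer called (adjusted p = 0.572). Array C was also the lowest on both sides for the immunoproteasome subunit Psmb9 (226, 628 and 161 in infarct tissue, against 161, 323 and 44.2 in remote tissue, 0.82 ± 0.33). Its call was lost without remote array C (0.34, adjusted p = 0.451) or without infarct array B (0.39, adjusted p = 0.39).

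Cytoskeletal, annexin and S100 genes were higher for 29 of 46 and lower for 4 (median 0.839). Lcp1, the plastin of leukocytes, differed by 2.29 ± 0.31, Cotl1, a coactosin-like actin binder, by 2.04 ± 0.32 and Capg, the capping protein of macrophages, by 1.81 ± 0.24. S100a1, the S100 protein of cardiomyocytes, was lower (-1.08 ± 0.15), as were Tuba4a (-1.12 ± 0.23) and Myl9 (-1.05 ± 0.18). In this list 20 of 46 genes were higher in remote than in sham tissue, against 4.47% of all genes. Lysosomal genes were higher for 19 of 42 and lower for 6: Ctsz differed by 1.76 ± 0.22, Gm2a, the ganglioside activator protein, by 1.53 ± 0.20, and Gusb, a glucuronidase, by 1.18 ± 0.18, while Npc1 (-1.13 ± 0.19), which exports cholesterol, and Gaa (-0.72 ± 0.13), the lysosomal glucosidase that clears glycogen in muscle, were lower. Cytosolic ribosomal proteins (5 of 28 higher, 2 lower, median -0.038) and proteasome and ubiquitin genes (6 of 33 higher, 5 lower, median 0.025) lay near the median of all genes.

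**Figure D4:**
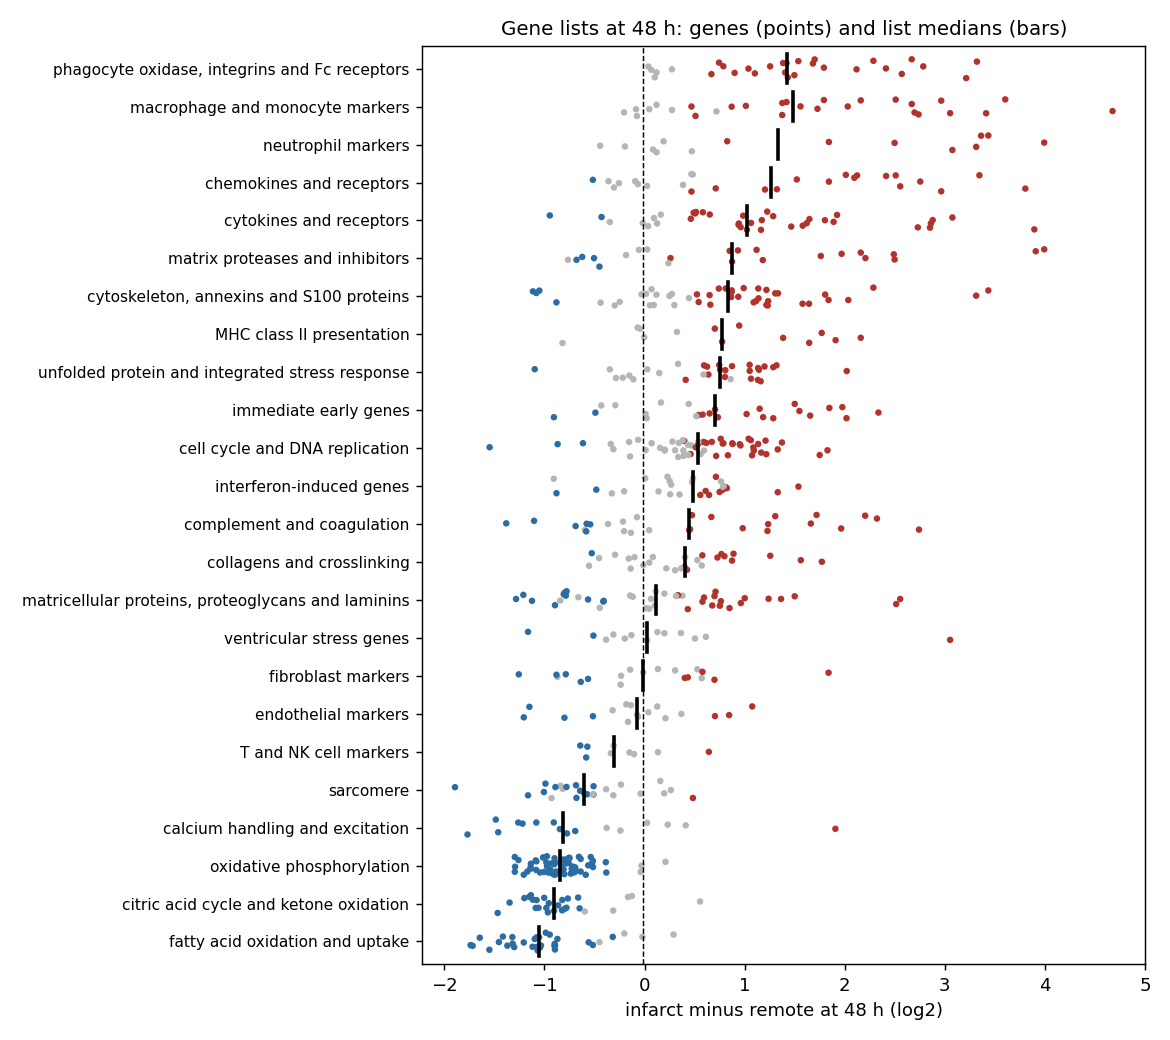
Differences at 48 h (infarct minus remote, log2) of the tested members of 24 gene lists, 1 point per gene, with the list median as a black bar; called genes are red (higher) or blue (lower) and the others grey. The dashed line is the median of all genes, -0.018. Phagocyte, macrophage and neutrophil lists lie to the right of it and fatty acid oxidation, citric acid cycle and oxidative phosphorylation to the left.

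Among the genes that fell most, muscle and membrane genes led. The first by size was Prxl2a, a thioredoxin-fold protein, with a difference of -2.40 ± 0.61 (adjusted p = 0.00126), but its sham values of 463, 26.7 and 128 spread as widely as the difference itself. Art1, a surface ADP-ribosyltransferase of muscle, read 409.8, 623 and 597 in infarct tissue, against 2865, 3076 and 2437 in remote tissue (-2.28 ± 0.19, adjusted p = 2.85e-12). Dmpk, the kinase named for myotonic dystrophy, read 813, 1039.6 and 1154 in infarct tissue, against 4084, 4421 and 6297 in remote tissue (-2.24 ± 0.20), and Sgca, alpha-sarcoglycan of the dystrophin complex, read 456, 648 and 867 in infarct tissue, against 2956, 3449.6 and 2749 in remote tissue (-2.18 ± 0.24). For these 3 genes every infarct value was far below every remote value. Slc2a4, the insulin-responsive glucose transporter, differed by -1.94 ± 0.24, Ldb3, a Z-disc protein, by -1.89 ± 0.24, Kcnk3, a background potassium channel, by -1.86 ± 0.24, Car14, a membrane carbonic anhydrase, by -2.02 ± 0.28 and Ephx1, the microsomal epoxide hydrolase, by -1.86 ± 0.30. Clec3b, tetranectin, read 43.1, 72.7 and 40.7 in infarct tissue, against 434, 456 and 337 in remote tissue and is a gene of stroma rather than of muscle (-2.22 ± 0.24).

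Of 25 sarcomere genes, Ldb3 among them, 13 were lower and 1 higher (median -0.604), against 23.6% of all genes lower. Actc1, cardiac actin, read 13820.4, 14999.7 and 16172 in infarct tissue, against 20572, 20169.6 and 23366 in remote tissue (-0.51 ± 0.09, adjusted p = 2.06e-05), and Tnnt2, cardiac troponin T, differed by -0.68 ± 0.16. Tnni3, cardiac troponin I, read 11403, 11942 and 15950.1 in infarct tissue, against 24823, 24235 and 28437 in remote tissue (-0.99 ± 0.33), and Mybpc3, the myosin-binding protein C, differed by -1.005 ± 0.19. Some of these calls depended on the scaling. After quantile normalization, which gives every array the same distribution of values, the limma fit called neither Actc1 (-0.08, adjusted p = 0.378) nor Tnni3 (-0.64, adjusted p = 0.151). Myh6, the adult myosin heavy chain of the mouse, read 13718, 12461 and 17600.4 in infarct tissue, against 25369, 23036 and 28283 in remote tissue. All infarct values were below all remote values, but the fit over all arrays did not call the gene (-0.82 ± 0.38, adjusted p = 0.0738). Limma fits of the 6 arrays alone called Myh6 lower, paired by number (adjusted p = 0.00859) and unpaired (adjusted p = 0.00957). Among the genes named here the paired fit gained 4 calls and lost 19, which are listed below. Myh7, the fetal heavy chain, was lower as well (-1.16 ± 0.47), and Tpm1, tropomyosin 1, was the higher gene (0.48 ± 0.17). Infarct and remote values did not overlap for Actc1, Tnni3 and Myh6, and array C was the highest infarct array for all 3 genes.

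Calcium handling and excitation genes were lower for 10 of 16 and higher for 1 (median -0.81). Hrc, the histidine-rich calcium-binding protein of the sarcoplasmic reticulum, read 1180.3, 1080.1 and 1875 in infarct tissue, against 4702, 4955 and 4373 in remote tissue (-1.77 ± 0.21, adjusted p = 5.15e-09). Fxyd1, phospholemman, the regulator of the sodium pump, differed by -1.46 ± 0.13, and the calcium channel subunits Cacnb2 and Cacna1c by -1.49 ± 0.24 and -1.26 ± 0.18. Ryr2, the calcium release channel, differed by -0.91 ± 0.21, Atp2a2, the calcium pump SERCA2, by -0.85 ± 0.24, Slc8a1, the sodium-calcium exchanger, by -0.69 ± 0.15 and Casq2, cardiac calsequestrin, by -0.78 ± 0.17. Fxyd5, a member of the same family as Fxyd1 that is known from epithelia and other cells, was the gene that rose (2881, 2771 and 2068 in infarct tissue, against 599.6, 673 and 666 in remote tissue, 1.91 ± 0.22). Of 17 ion channel and connexin genes, 10 were lower and none higher. Kcnj11, the pore of the ATP-sensitive potassium channel, differed by -1.16 ± 0.23, Kcnh2, the rapid delayed rectifier, by -0.78 ± 0.16 and Gja1, connexin 43, by -0.42 ± 0.13. Kcnd2, a pore of the transient outward current, read 19.0, 31.0 and 26.6 in infarct tissue, against 117, 112 and 60.8 in remote tissue, and 313, 389.4 and 445 in sham tissue, so that the groups lay in 3 separate steps (remote minus sham -1.60 ± 0.33, infarct minus remote -0.98 ± 0.30). After subtraction of the sham difference between lower and upper ventricle the infarct minus remote difference of Kcnd2 was -1.62.

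Cardiac transcription factors were lower for 14 of 26 and higher for 3. Rxrg, a retinoid X receptor, differed by -1.53 ± 0.28, Gata6 by -1.27 ± 0.15, Hopx by -1.33 ± 0.25 and Ppara, the receptor that drives fatty acid oxidation genes, by -1.12 ± 0.20. Esrra, an orphan nuclear receptor that with Ppargc1a drives mitochondrial genes, read 805, 965 and 987 in infarct tissue, against 2252, 2182 and 2120.2 in remote tissue (-1.21 ± 0.13), and Ppargc1a itself read 40.9, 58.0 and 88.3 in infarct tissue, against 229, 298 and 408 in remote tissue (-1.72 ± 0.23). Neurohormonal and adrenergic genes were lower for 6 of 17 and higher for 1, against 23.6% and 24.4% of all genes. Npr3, the clearance receptor for natriuretic peptides, differed by -1.05 ± 0.18, Corin, the protease that activates the atrial peptide, by -0.96 ± 0.24 and Adra1b by -0.70 ± 0.15.

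Most genes of mitochondrial energy metabolism were lower. Of 61 oxidative phosphorylation genes, 58 were lower and none higher, with a median of -0.843. By complex, 25 of 27 genes of complex I were lower (median -0.883), 4 of 4 of complex II (median -1.034), 8 of 8 of complex III (median -0.839), 10 of 10 of complex IV (median -0.897) and 10 of 11 of complex V, the ATP synthase (median -0.638). Uqcrc2, a core subunit of complex III, read 5960.2, 4970.2 and 7522 in infarct tissue, against 12871, 14383 and 18091 in remote tissue (-1.30 ± 0.18, adjusted p = 1.76e-07). Ndufa8, of complex I, read 1879, 1837 and 2548 in infarct tissue, against 5209.5, 5118 and 5083 in remote tissue (-1.30 ± 0.15). The remote values of both genes overlapped the sham values, and array C was the highest infarct array in each.

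Fatty acid oxidation and uptake genes were lower for 29 of 33 and higher for none (median -1.053). Ucp3, a mitochondrial carrier induced by fatty acids, differed by -1.74 ± 0.31, Eci1, an isomerase for unsaturated chains, by -1.65 ± 0.21, Crat, carnitine acetyltransferase, by -1.46 ± 0.17 and Hadh, a dehydrogenase of the cycle, by -1.42 ± 0.17. Fabp3, the fatty acid-binding protein of heart muscle, read 7127, 7128 and 12242 in infarct tissue, against 15342, 15143 and 19328 in remote tissue (-0.95 ± 0.34). Acadm, the medium-chain acyl-CoA dehydrogenase and a textbook target of nuclear receptors, fell less (-0.52 ± 0.19, adjusted p = 0.0238). Citric acid cycle and ketone oxidation genes, a list that shares the 4 complex II genes with the one above, were lower for 22 of 27 and higher for none (median -0.904): Ogdh, the oxoglutarate dehydrogenase, read 4014, 4087 and 6511 in infarct tissue, against 12747, 13244 and 13638 in remote tissue (-1.47 ± 0.17), Oxct1, which activates ketone bodies, differed by -1.35 ± 0.15, and Idh3a by -1.15 ± 0.17. Ckm, the muscle creatine kinase, differed by -1.06 ± 0.31, with 0.64 at a second, dimmer probe set. The summed intensity of the oxidative phosphorylation genes was 271846 to 351066 on infarct arrays, 522379 to 566003 on remote arrays and 564074 to 637875 on sham arrays. The summed sarcomere intensity given above moved with it (235050 to 283405 on sham arrays), and its part in the metabolic fall was not tested.

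The Acadm promoter at chr3:153944594-153944893 (GRCm38.p6, minus strand) is shown because Acadm is a textbook target of nuclear receptors, with the match to AAGGTCA, read on either strand, in capitals.
Acadm: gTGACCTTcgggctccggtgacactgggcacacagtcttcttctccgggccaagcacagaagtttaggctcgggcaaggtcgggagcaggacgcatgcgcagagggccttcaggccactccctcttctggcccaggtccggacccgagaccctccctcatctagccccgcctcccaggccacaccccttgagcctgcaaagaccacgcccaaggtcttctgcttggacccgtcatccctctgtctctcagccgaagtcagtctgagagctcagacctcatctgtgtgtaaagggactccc
These letters began 249 bases before the start. They were present in 3 of 59 promoter entries of tested fatty acid and citric acid cycle genes (5.08%), in 5 of 54 of oxidative phosphorylation genes (9.26%), and in 245 of 6919 promoters of tested genes (3.54%) and 4.72% of all promoters in the table. The letters are thus rare among the fatty acid and citric acid cycle genes tested. Such a match is not evidence of binding in this tissue, and any part of nuclear receptors in the fall of these genes was not tested.

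Of 22 glycolysis and glucose transport genes 8 were higher and 8 lower, against 24.4% and 23.6% of all genes. For 2 pairs of isoforms the muscle form was lower and the general form higher. Slc2a1, the glucose transporter of most cells, read 875, 1212 and 1508 in infarct tissue, against 273, 198 and 192 in remote tissue (2.20 ± 0.25), opposite to the muscle transporter Slc2a4 above. Pgam1, the general phosphoglycerate mutase, differed by 1.35 ± 0.16, and Pgam2, its muscle isoform, by -1.41 ± 0.28. Hk1, a hexokinase, differed by 1.26 ± 0.24, and Eno3, the muscle enolase, by -1.31 ± 0.24. Hk2, the insulin-regulated hexokinase (-0.19 ± 0.17, 95% interval -0.54 to 0.16), and Ldha, the lactate dehydrogenase subunit induced by hypoxia (0.07 ± 0.11, 95% interval -0.15 to 0.28), were not called.

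Of 32 angiogenesis and hypoxia genes, 9 were higher and 6 lower, shares near those of all genes (24.4% and 23.6%). Hif1a, the oxygen-regulated transcription factor, read 7545, 7212 and 6178 in infarct tissue, against 2628, 3541 and 2939 in remote tissue (1.19 ± 0.13, adjusted p = 6.41e-10), and Epas1, its relative in endothelium, read 189.8, 140.0 and 200.3 in infarct tissue, against 476, 475 and 566 in remote tissue (-1.32 ± 0.25). Pgf, placental growth factor, differed by 1.79 ± 0.16, Angpt2, the angiopoietin that loosens vessels, by 1.49 ± 0.18 and Adm, adrenomedullin, by 1.57 ± 0.21, whereas Vegfb, the growth factor tied to fatty acid uptake in the heart, was lower (-1.35 ± 0.16). Vegfa read 440.1, 820.0 and 1943 in infarct tissue, against 763, 935 and 1179 in remote tissue. Its infarct values ran from below to above all remote values, array C again being the highest, and no difference was called (-0.07 ± 0.29, 95% interval -0.67 to 0.52). Endothelial markers were higher for 3 of 17 and lower for 4, shares not above those of all genes. Their summed intensities were 19207 to 21184 on infarct and 18608 to 20059 on remote arrays. Emcn, endomucin of capillaries and veins (1.08 ± 0.11), and Cdh5, the cadherin of endothelial junctions (0.85 ± 0.13), were higher, and Cd36, the fatty acid receptor of capillaries and muscle (-1.21 ± 0.21), and Aqp1, the water channel of capillaries (-1.15 ± 0.27), lower. After subtraction of the sham difference between lower and upper ventricle Aqp1 stood at -0.74 and was not called (adjusted p = 0.0707). Kdr, the main receptor for Vegfa, was not called (-0.18 ± 0.22). Smooth muscle and pericyte markers were higher for 1 of 13, Mcam (1.19 ± 0.17), and lower for 4, against 24.4% and 23.6% of all genes. Among the 4 were Myh11, the smooth muscle myosin (118, 105 and 83.6 in infarct tissue, against 549, 594 and 338 in remote tissue, -1.84 ± 0.27), and Rgs5, of pericytes (-1.06 ± 0.15). Of 9 adipocyte markers, Lipe, hormone-sensitive lipase, was the 1 gene called, as lower (-1.250 ± 0.19; -0.72 after the same subtraction).

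Metallothionein and antioxidant genes were higher for 10 of 35 and lower for 15, against 24.4% and 23.6% of all genes. Hmox1, the inducible heme oxygenase, read 7529.6, 6309 and 5875 in infarct tissue, against 2044, 2407 and 2073 in remote tissue (1.57 ± 0.19), Hp, haptoglobin, differed by 2.27 ± 0.50 and Gsr, glutathione reductase, by 1.48 ± 0.13, while Cat, catalase of peroxisomes, was lower (-1.18 ± 0.19). Of 31 growth factor genes, 6 were higher and 5 lower, shares below those of all genes (24.4% and 23.6%). Igfbp3 differed by 1.88 ± 0.28, Ereg, epiregulin, by 1.32 ± 0.18 and Hbegf by 1.30 ± 0.24, and Ctf1, cardiotrophin, by -1.31 ± 0.16.

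The sham arrays showed genes with infarct and remote values both above sham. Of 13 ventricular stress genes, 1, Lgals3 above, was higher and 2 lower in infarct tissue (median 0.026), while 6 were higher and none lower in remote than in sham tissue (median 1.171). Nppa, the atrial natriuretic peptide, read 2687, 3535 and 3305 in infarct tissue, against 2961, 2819 and 2867 in remote tissue, and 1363, 1314 and 1089.8 in sham upper ventricle. Infarct and remote values overlapped and both exceeded the sham values, with differences of 0.13 ± 0.29 (adjusted p = 0.737, 95% interval -0.45 to 0.71) between infarct and remote tissue and 1.18 ± 0.31 (adjusted p = 0.0116) between remote and sham tissue. Nppb, the B-type peptide, followed the same course (-0.20 ± 0.26 and 1.69 ± 0.28).

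Mt1, the metallothionein that buffers zinc, read 12885, 12275 and 14244 in infarct tissue, against 12369, 12367 and 13963 in remote tissue, and 5704, 5529 and 5306 in sham tissue. Infarct and remote values were nearly equal (0.03 ± 0.17, 95% interval -0.33 to 0.38) and both were above every sham value (remote minus sham 1.22 ± 0.19). Lcn2, the iron-scavenging lipocalin of neutrophils and of stressed tissue, read 2567, 2817 and 4166 in infarct tissue, against 3501, 4530.1 and 4835 in remote tissue, and 283, 422 and 643 in sham tissue. It had the largest rise of remote against sham tissue (3.18 ± 0.30, adjusted p = 7e-10) and was not called between infarct and remote tissue (-0.44 ± 0.28, 95% interval -1.004 to 0.12; second probe set -0.52, called), unlike the neutrophil genes S100a8 and S100a9. Serpina3n, an acute phase serpin, went further and was lower in infarct than in remote tissue (4332, 4915 and 5944 in infarct tissue, against 6935, 7859 and 9003 in remote tissue, -0.65 ± 0.20), with 1094, 958 and 1630.3 in sham tissue. Ccn2, connective tissue growth factor, read 9743, 8223 and 9404 in infarct tissue, against 7961, 6941 and 9007 in remote tissue, and 1765, 1994 and 1947 in sham tissue (0.20 ± 0.24 between infarct and remote tissue, 2.04 ± 0.26 between remote and sham tissue). Cdkn1a, the p53 target p21, was not called between infarct and remote tissue (0.44 ± 0.20, adjusted p = 0.0748; second probe set 0.88, called) and was higher in remote than in sham tissue by 1.94 ± 0.22.

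A few genes were highest in remote tissue. Apod, an apolipoprotein of stressed and growth-arrested cells, read 251, 203 and 243 in infarct tissue, against 1805, 805 and 931 in remote tissue, and 279.6, 239 and 199 in sham tissue. Remote values were above both other groups (infarct minus remote -2.06 ± 0.28, remote minus sham 2.03 ± 0.30). Spock2, testican 2 of the extracellular matrix, read 152, 126 and 202 in infarct tissue, against 933, 596 and 990.1 in remote tissue, and 226, 342 and 162 in sham tissue (infarct minus remote -2.09 ± 0.36, remote minus sham 1.63 ± 0.39). Pdk4, the kinase that shuts pyruvate out of the citric acid cycle, read 5716, 4236 and 8620.3 in infarct tissue, against 11214, 11553 and 10481 in remote tissue (-0.90 ± 0.34), with 5449.5, 4581 and 7337 in sham tissue, and its difference between remote and sham tissue was not called (0.96 ± 0.36, adjusted p = 0.0901). Ift81, of intraflagellar transport, was lowest in infarct and intermediate in remote tissue (391.4, 381 and 414 in infarct tissue, against 791, 1075 and 732 in remote tissue, and 2710.4, 2951 and 2959 in sham tissue). Dbp, a clock output factor, read 58.2, 97.3 and 72.7 in infarct tissue, against 217, 226 and 43.5 in remote tissue, and 984, 1021 and 1087 in sham tissue; it had the largest fall of remote against sham tissue (-2.54 ± 0.33) and was not called between infarct and remote tissue (-0.62 ± 0.30, adjusted p = 0.0853). The sources used here do not give the times of day of tissue collection, and their part in this difference cannot be told apart from the groups.

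The same contrast at 24 h and 1 week, on other arrays, sets these differences in time. At 24 h 1034 genes were higher in infarct than in remote tissue and 1186 lower, and at 1 week 1521 were higher and 1229 lower, 15.5% and 17.8% of genes at 24 h and 22.8% and 18.4% at 1 week. The change from 24 h was tested as the difference between the 2 differences: it was more positive at 48 h for 349 genes (5.23%) and more negative for 242 (3.63%). Leaving out 1 array of 48 h moved this total of 591 (8.86%) to 138 without infarct array B or without remote array C, to 209 without infarct array A and up to 854 without infarct array C. The arrays of 24 h and 1 week were not left out in turn, so the dependence on them is not known.

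Macrophage, lysosomal and cell cycle genes were among those whose difference grew from 24 h to 48 h. Ctsc differed by 0.45 at 24 h and 2.49 at 48 h (change 2.04 ± 0.43, adjusted p = 0.00578). It read 307, 606 and 862 in infarct and 265, 321 and 811 in remote tissue at 24 h, from lowest to highest. Itgb2 differed by 1.44 and 3.21 (change 1.78 ± 0.46), Sirpa, the receptor for the signal that spares healthy cells from phagocytosis, by -0.14 and 1.70 (change 1.84 ± 0.38), and Smc2 by -0.27 and 1.60 (change 1.87 ± 0.31). Sirpa had 1 low infarct array at 24 h (48.6, 265.3 and 288.5, against 155.3, 190.1 and 279.1 in remote tissue, from lowest to highest). By list, the change was positive and called for 10 of 42 lysosomal genes, 9 of 55 cell cycle genes and 4 of 28 macrophage markers, against 5.23% of all genes, and for none of 14 neutrophil markers. It was negative and called for 15 of 61 oxidative phosphorylation genes and 7 of 27 citric acid cycle genes, against 3.63% of all genes. Egr1, an immediate early transcription factor, changed the other way: it differed by 2.84 at 24 h and by 0.65 at 48 h (change -2.19 ± 0.39, adjusted p = 0.00239). Its value at 48 h rested on single arrays (0.37 without infarct array C, 0.998 without remote array C). Il6 differed by 4.45 and 2.88 (change -1.57 ± 0.50, adjusted p = 0.0433).

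From 48 h to 1 week the difference became more positive for 303 genes (4.54%) and more negative for 353 (5.29%). Inflammatory genes led the more negative ones. Cxcl2 differed by 3.81 at 48 h and 0.45 at 1 week (change -3.35 ± 0.58, adjusted p = 0.000193), Hspa1a by 2.68 and -0.49 (change -3.17 ± 0.62), Il1b by 3.90 and 1.17 (change -2.73 ± 0.80), and Fpr2 by 3.36 and 0.84 (change -2.52 ± 0.33). Of 37 cytokine genes 15 became less positive, as did 6 of 14 neutrophil markers, 7 of 28 macrophage markers, 7 of 26 chemokine genes and 9 of 25 immediate early genes, against 5.29% of all genes. A less positive difference can come from lower infarct or higher remote values. Among macrophage markers, mean Ctss rose from 6456.5 to 11145.5 in infarct tissue and from 1345.4 to 7036.2 in remote tissue. Mean Arg1 instead fell from 6591.9 to 2501.9 in infarct tissue and went from 235.9 to 380.6 in remote tissue. The difference of several stromal genes became more positive. Thbs2, a thrombospondin of fibroblasts, differed by -0.66 at 48 h and 1.71 at 1 week (change 2.37 ± 0.44, adjusted p = 0.000462). It read 2603, 3045 and 5072 in infarct tissue, against 543, 865 and 2183 in remote tissue, at 1 week, from lowest to highest. Ogn differed by -1.57 and 0.43 (change 1.999 ± 0.33), Acta2 by -0.32 and 1.18 (change 1.503 ± 0.34) and Tagln by -0.57 and 1.16 (change 1.73 ± 0.34). For oxidative phosphorylation the median was -0.363 at 24 h, -0.843 at 48 h and -1.214 at 1 week, with 8 of 61 genes called as changed from 48 h to 1 week, all more negative.

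**Figure D5:**
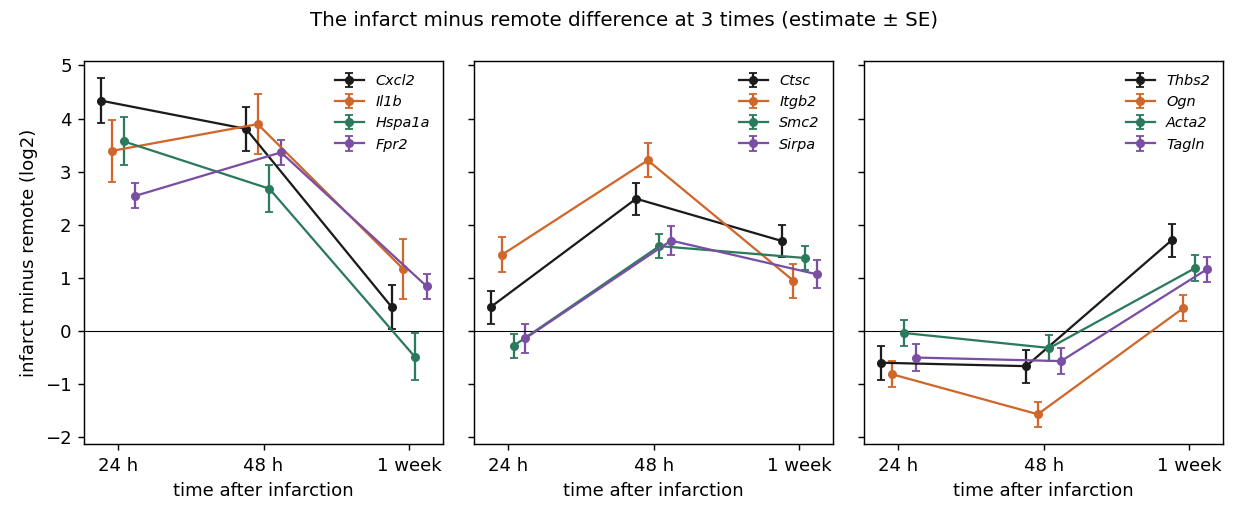
Infarct minus remote differences (log2, y axis) at 24 h, 48 h and 1 week (x axis) for 12 genes, as the estimate of the fit with its standard error as a bar; each estimate compares 3 infarct with 3 remote arrays. Cxcl2, Il1b, Hspa1a and Fpr2 are highest at 24 h or 48 h and lowest at 1 week, Ctsc, Itgb2, Smc2 and Sirpa rise from 24 h to 48 h, and Thbs2, Ogn, Acta2 and Tagln lie below or near 0 until 48 h and above it at 1 week.

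Infarct and remote tissue differ in position along the ventricle as well as in injury, and the sham arrays of the lower and upper ventricle differ in position without an infarct. In 10 sham arrays paired by number, 0 of 6670 genes were called by limma between lower and upper ventricle and 961 had an unadjusted p under 0.05; a fit over all 59 arrays called 212 higher in lower ventricle and 183 lower (5.92% in all). When the mean sham difference of that fit was subtracted from the difference at 48 h, 1224 genes were higher in infarct tissue and 1244 lower, 18.4% and 18.7% of the genes tested. All 14 largest rises and 14 largest falls were still called after subtraction. They had been picked for their size in the same infarct and remote values, so this says little about other genes. The rises kept nearly the same size, for example 4.50 for Arg1 and 4.06 for Mmp9, whereas the falls varied, with -2.19 for Art1 and -1.78 for Sgca. For some genes position was of like size. Actb, cytoplasmic actin, differed by 1.14 ± 0.20 between infarct and remote tissue, by 1.15 ± 0.27 between lower and upper sham ventricle in the 10 sham arrays, and by -0.10 ± 0.24 (adjusted p = 0.763) after subtraction. For Spock2 the difference of -2.09 became -1.19, and for Dmpk that of -2.24 became -1.55, both called.

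Within the same-numbered pairs, all 3 differences had one sign for 4262 genes (63.9%), 2120 of them positive and 2142 negative. Among the genes called higher the median within-pair difference was 0.786 in pair A, 0.747 in pair B and 0.739 in pair C, and among those called lower it was -0.732, -0.669 and -0.626. Pair C stood apart in the size of some lists: the median of fatty acid oxidation genes was -1.209, -1.128 and -0.657 in pairs A, B and C, that of citric acid cycle genes -1.143, -1.065 and -0.592, and that of chemokines 1.713, 1.323 and 0.646. Called genes with the widest spread between pairs included Zfpm2, a cofactor of Gata4, with within-pair differences of -2.33, -0.79 and 0.71, Cbr3, a carbonyl reductase, with 1.86, 1.07 and -0.60, and Mpeg1 above. For Cbr3 the remote value of pair C was above all infarct values (249, 178 and 162 in infarct tissue, against 35.3, 61.1 and 269 in remote tissue). The call of Zfpm2 was lost without array A of either tissue (-0.37 and -0.36) and that of Cbr3 without remote array A (0.36).

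Of the 248 called genes named in the text, 35 lost the call when 1 of the 6 arrays was left out and 30 when the sham difference between lower and upper ventricle was subtracted. Besides those described with such a loss above, leaving out 1 array ended the calls of Acadm, Bmp4, Bmp6, Cfb, Cxcl12, Fabp3, Gja1, Hspb8, Htr2b, Il10rb, Mgp, Mmp3, Myh7, Pcolce, Pdk4, Pecam1, Rag1, Snn, Tbc1d10a, Tnni3, Tpm1 and Vim. Likewise the subtraction ended those of Bmp6, Cbr3, Cd3e, Cdkn1c, Egr1, Fabp3, Fbln1, Fosl2, H2-DMb1, Htr2b, Isg15, Lig1, Mcm2, Mmp14, Myh7, Pcolce, Pdk4, Psmb9, Sparc, Tbc1d10a, Tnni3, Tpm1 and Zfpm2. The paired fit of the 6 arrays ended 19 of the 248 calls. Besides Bmp4 and Bmp6 these were Acadm, Bik, Cbr3, Cd3e, Fosl2, Gja1, Htr2b, Il10rb and Isg15. Also lost were Mgp, Mmp11, Mpeg1, Rag1, Timp2, Timp3, Tpm1 and Zfpm2. That fit called 4 named genes that the main fit did not, Adgre1, Etv2, Myh6 and Thbs2. Of 50 called genes with another probe set, 24 were not called in the same direction by one of those sets, among them Bmp1, Capg, Eln, Emcn, Gata6, Npr3 and Slc8a1. Quantile normalization ended 12 of the 248 calls. They were those of Acadm, Actc1, Egr1, Fabp3, Gja1, Hspb8, Htr2b, Mmp11, Myh7, Pdk4, Tnni3 and Zfpm2.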

How the data were processed

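Deposited values are intensities of 12488 probe sets on a linear scale, per the value table; the sources used here do not give the authors' background and summary steps. Each array's mean between the 2nd and 98th percentile was 499.2 to 499.9, so the arrays had been scaled alike. By the platform annotation 10833 probe sets had 1 gene, 396 several and 1193 none, and 66 were controls. The brightest probe set of a gene over all arrays was kept (8251 genes). A filter kept the 6670 genes that reached 108.2 (40th percentile of the whole table) on 3 or more arrays.

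limma 3.58.1 (R 4.3.3) fitted log2(intensity + 45.6), the offset being 0.25 times the median of all values, over 59 arrays in 23 groups, with the title number as a random block (consensus correlation 0.148) and Benjamini-Hochberg adjustment over 6670 genes. The other comparisons were contrasts of this fit, except sham lower against upper (10 arrays, number as a fixed block). Tested on simulated data for infarct against remote tissue at 48 h, it recovered 36% of differences of 0.5, 90% of 1 and 100% of 2 and 3 on the log2 scale. The simulation changed 50 of 6670 genes at each size, and 11 unchanged genes were called. In the data 48.1% of genes were called, so the recovery need not carry over to them.

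The comparison, the lists and the genes to name were chosen with earlier results of these data known. Named are the 14 largest rises and falls without overlap, up to 6 called members of a list with up to 3 in the other direction, the 6 largest each way of other comparisons, the 6 widest spreads between pairs and a fixed panel of 104 genes, 15 of them not tested. Promoters are RefSeq entries, searched on both strands. Offset, scaling, filter, probe sets, block and left-out arrays were varied. The number of arrays limits the precision.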

Additional observations from a re-analysis of the deposited data

Results flagged for a closer look

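The difference between infarct and remote tissue was not the same at 48 h as at 24 h for 591 genes and not the same at 1 week as at 48 h for 656 genes, each by limma's test of the change itself. The largest changes from 24 h to 48 h were toward infarct tissue for Ctsc (2.04), Smc2 (1.87), Sipa1 (1.86), Psmb9 (1.85), Sirpa (1.84) and Itgb2 (1.78) on the log2 scale. They were toward remote tissue for Agt (-2.34), Egr1 (-2.19), Rag1 (-2.05), Etv2 (-1.76), Tbc1d10a (-1.63) and Snn (-1.57). Of these, Agt, the precursor of angiotensin, read 37.3, 18.1 and 186 in infarct tissue, against 155, 101 and 149.9 in remote tissue at 48 h, and Snn and Etv2 were also near or below the filter intensity of 108.2 on most arrays. Sipa1, a regulator of the small GTPase Rap1, read 509.6, 460.2 and 374 in infarct tissue, against 196, 171 and 18.4 in remote tissue, so 1 low remote array weighs on its difference. At 24 h 1 infarct array of Sipa1 was low (38.1, 282.8 and 313.8, against 167.8, 204.6 and 251.2 in remote tissue, from lowest to highest), which weighs on the change.

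From 48 h to 1 week the largest changes toward infarct tissue were those of Thbs2 (2.37), Htr2b (2.09), Clec3b (2.05), Ccn5 (2.0), Ogn (2.0) and Mfap4 (1.93). Ccn5 and Mfap4 were dim in both tissues at 48 h, and Clec3b differed by -2.22 at 48 h and -0.17 at 1 week. The largest changes toward remote tissue were those of Cxcl2 (-3.35), Hspa1a (-3.17), Ltb4r1 (-2.9), Il1b (-2.73), Hspa1b (-2.61) and Fpr2 (-2.52). Ltb4r1, the receptor for the neutrophil attractant leukotriene B4, read 1042, 859 and 772 in infarct tissue, against 62.7, 59.3 and 113 in remote tissue at 48 h and differed by 2.93 at 48 h and 0.03 at 1 week.

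The regional difference at 48 h, less the difference between lower and upper sham ventricle, was called for 2468 genes.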

How the results depend on the processing

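The count of genes called between infarct and remote tissue, 3207, moved to between 2226 and 3750 over the offset, scaling, filter, probe set, block, position and left-out array settings, with 46.9% to 52.9% of calls higher. The paired fit of the 6 arrays with the number as a replicate block gave 2316 calls, and the numbers pair weakly: same-numbered arrays deviated together with r of 0.06, 0.27 and 0.19 in pairs A, B and C, and each infarct array correlated best with its own number. Without the replicate block the change from 24 h had 369 calls against 591 and the change to 1 week 405 against 656. Leaving out 1 array of 48 h gave 138 to 854 calls for the change from 24 h and 285 to 585 for remote against sham. No array of 24 h or 1 week was left out. Sham lower against upper had 0% of genes called and 5.92% in the fit of all arrays with the number as a random replicate block; the causes of these moves were not tested. Of 4721 combinations of a gene named in the text and a setting, 4401 kept their direction and their side of the threshold, 263 lost the call, 29 gained one and 28 turned the sign. The sign turned at another probe set for Bmp4 (0.47), Cat (0.12), Ckm (0.64), Csf1r (-0.98), Cxcl12 (0.36), Gja1 (0.15), Lig1 (1.34), Lox (-0.93), Mcm5 (-0.45), Mki67 (1.10), P4hb (-0.84), Tbc1d10a (0.31) and Tpsb2 (0.77). It turned after the sham difference was subtracted for Actb (-0.10), Ccn2 (-0.0332), Mt1 (-0.0031) and Nppa (-0.17), and under quantile normalization for Nppb (0.22). Over the left-out arrays the range was -0.27 to 0.0741 for Ccn5, -0.10 to 0.54 for Col3a1, -0.46 to 0.30 for Mki67, -0.025 to 0.0745 for Mt1 and -0.59 to 0.38 for Vegfa. Dim genes are called less often: 33.8% in the dimmest of 3 equal bins and 61.4% in the brightest.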
